A study of Homo sapiens with 5 samples.

Results

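CGI-1746 alone was compared with mock treatment in MDA-MB-231 cells, a mesenchymal-like triple-negative breast cancer line, after 4 h. By the series title, the compound inhibits BTK, a kinase of B cell receptor signalling, and also acts on the proteasome. Total RNA was sequenced from 5 libraries, 1 for each treatment: mock, CGI-1746, the inhibitor LU-102, a mixture called CGI-1746 plus LU-102 or the combination here, and bortezomib, the last given as a control for pathways that change when the proteasome is inhibited. The mock cells received none of these inhibitors as far as the labels state, and doses are not stated. Of the 4202 genes in the table, 4186 had a level of at least 1 in mock or with CGI-1746 and were compared as log2((CGI-1746 + 1) / (mock + 1)), called the log2 difference below. No condition has a second library, so there is no replicate error and no test, and every difference describes these libraries and not the treatment. A culture that differed by chance, a difference in the number of cells of a kind and a difference in RNA per cell cannot be told apart from an effect of the compound.

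Heat shock genes encode chaperones that bind unfolded protein, and the factor HSF1 switches them on when such protein builds up. The factor NRF2 drives antioxidant genes in electrophilic or oxidative stress, MTF1 drives metallothioneins when zinc is free, and ATF4 with CHOP drives genes of the integrated stress response. The aryl hydrocarbon receptor AHR switches on cytochrome P450 genes, and the ERK kinases switch on phosphatases and Sprouty proteins that hold ERK signalling back.

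The 2 libraries were alike in most respects. The log2 difference had a median of -0.02 over all 4186 genes, with quartiles at -0.09 and 0.06, and 62.4% of genes lay within 0.1 of 0. Its robust SD across genes, taken from the median absolute deviation, was 0.11. The same 5 genes, RN7SL1, RN7SL2, RMRP, RPPH1 and RN7SK, held 55.9% of the summed level in mock and 56.7% with CGI-1746. Levels are divided by gene length, as described below, which weights short genes, so these are not shares of reads or of RNA. Of 15 genes that mark the mesenchymal state, 13 were in the table, among them VIM, AXL and CD44, and their summed level was 231 in mock and 219 with CGI-1746. Of 13 luminal genes 4 were listed, all keratins (KRT7, KRT8, KRT18 and KRT19), of 10 basal genes only EGFR, of 13 blood cell genes only CD68, and of 10 genes of endothelium and fibroblasts none.

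At the limit of 2-fold, 5 genes stood higher with CGI-1746 (0.119% of those compared) and 2 were lower (0.0478%). The higher ones were HSPA1B, HSPA1A and the small nucleolar RNAs SNORA38, SNORA71A and SNORA71D. The lower ones were CYP1B1 and SNORA81. A second limit was set at a log2 difference of 0.32, which is 25% higher or 20% lower on the scale of level + 1, and is called the small limit below. By it, 64 genes were higher (1.53%) and 35 lower (0.836%). Of these, 40 and 25 were among the 3957 protein-coding genes, and 16 and 7 among 65 structural RNAs, largely short ones such as small nucleolar RNAs but also ribosomal RNA genes. Just inside the 2-fold limit lay CYP1B1 at -1.02, SNORA38 at 1.06 and HSPA1A at 1.11. Just outside it lay RNU6ATAC at -0.98, SNORA40B at 0.96, RNU12 at 0.93 and HMOX1 at 0.92. The plot of the log2 difference against the mean level shows the protein-coding genes that stand off the band and the scatter of short RNAs.

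**Figure D1:**
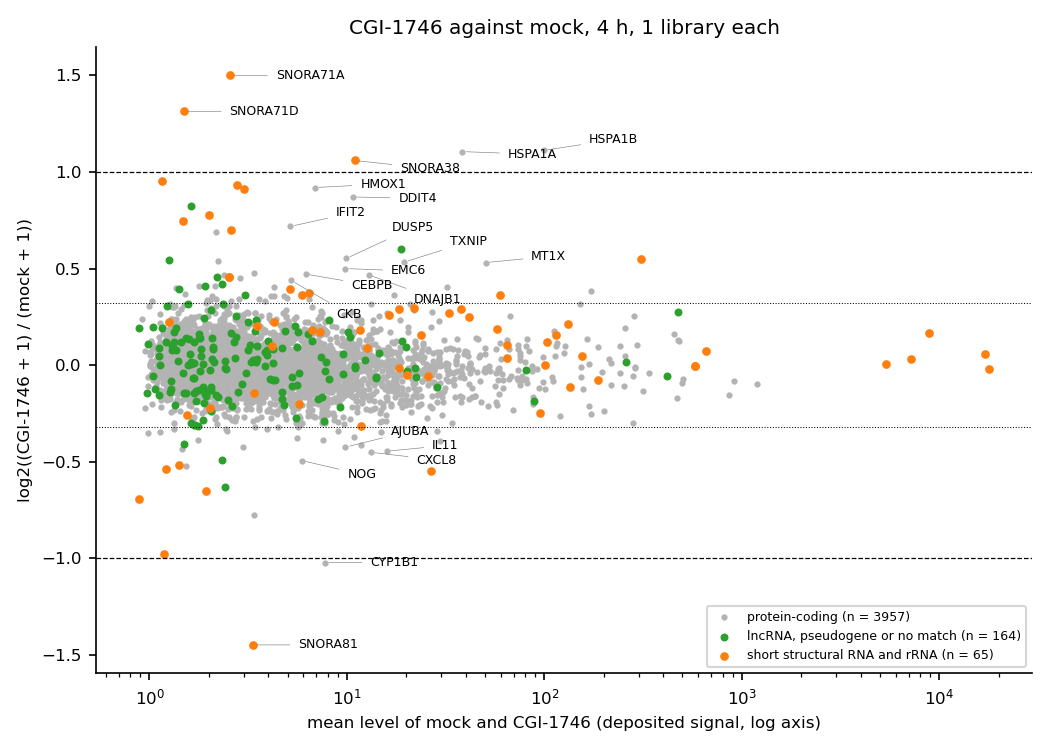
Each point is 1 of 4186 genes, with the mean level of the mock and CGI-1746 libraries on a log x axis and the log2 difference on the y axis, dashed lines at 2-fold and dotted lines at the small limit of 0.32. HSPA1A and HSPA1B at 1.11 and CYP1B1 at -1.02 are the protein-coding genes past 2-fold, while structural RNAs (orange) scatter past both lines.

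The levels could be turned back into reads for most genes, which gives the counting error behind a difference. Level times the length of the gene from start to end, introns included, was a whole multiple of 1 value per library for 2340 of 4187 genes matched to RefSeq, within 0.1 of a read in all 5 libraries, and a span within 10% of the RefSeq one gave whole reads for 826 more. One read added 59.38 to level times base pairs in mock and 58.83 with CGI-1746. Read as RPKM, a unit the table does not state, these values give 16839900 and 16998100 reads in the libraries. A level is thus divided by introns too, and a compact gene has a higher level than a long gene with as much mRNA. Levels are therefore compared below only within a gene. The intervals given for read ratios are exact Clopper-Pearson intervals at 95%, rescaled by the library factors, and cover counting error only, since duplicate reads cannot be told from independent ones.

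The spread between the libraries was set beside counting error, which leaves out any difference between cultures. Among 726 genes with a mean of 1000 to 2000 reads, the log2 read ratio had a robust SD of 0.12 across genes, where counting alone gives 0.06. Among 488 genes with 2000 reads or more these values were 0.10 and 0.04, and among 68 genes with fewer than 50 reads 0.57 and 0.42. The share of genes past the small limit went from 35.3% under 50 reads to 0.615% at 2000 or more. Among the 2993 genes that gave whole reads and had 100 or more of them, HMOX1 was 2-fold or more higher in reads and CYP1B1 lower. In that set DDIT4, IFIT2 and DUSP5 were also past 1.5-fold on the higher side and C15orf54, a long noncoding RNA, on the lower. Genes without whole reads, HSPA1A, HSPA1B and NEAT1 among them, are outside that set.

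**Figure D2:**
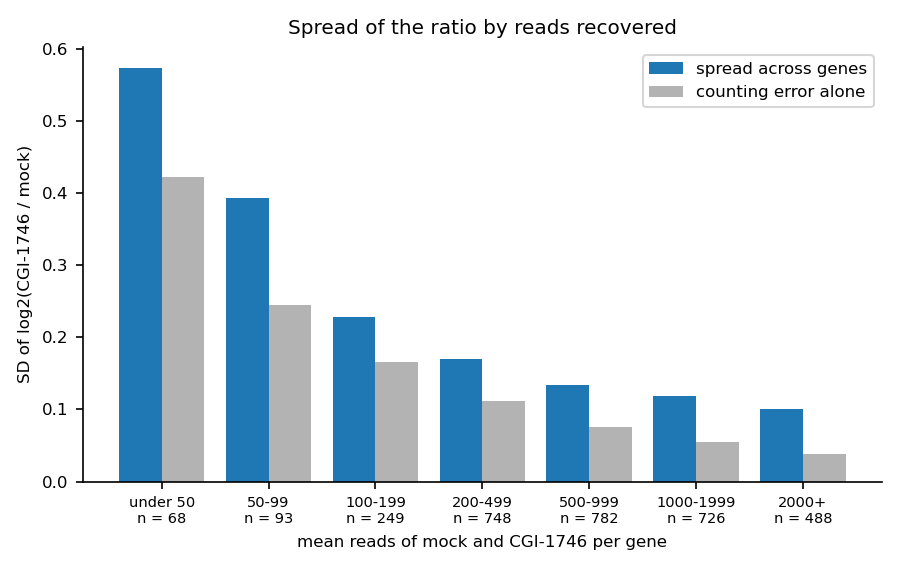
Bars give the SD of the log2 read ratio of CGI-1746 over mock in 7 classes of mean reads per gene, across genes (blue, from the median absolute deviation) and as counting error alone gives it (grey). The spread across genes exceeds counting error in every class, from 0.57 against 0.42 under 50 reads to 0.10 against 0.04 at 2000 reads or more.

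HSPA1B and HSPA1A, which are inducible HSP70 genes, had the largest log2 differences of all protein-coding genes. HSPA1B (chromosome 6, 31827738 to 31830254) had a level of 62.2 in mock, 136 under CGI-1746, 79.7 under LU-102, 284 under both and 99.5 under bortezomib. HSPA1A, its near copy (chromosome 6, 31815543 to 31817942), had 24.0, 52.7, 31.6, 107 and 38 in the same order. Both levels were thus higher with CGI-1746 than in the mock, LU-102 and bortezomib libraries and highest in the combination. The bortezomib library differed widely in make-up, so ranks against it, here and below, are of levels alone and do not compare induction. The ribosomal RNA gene RNA45SN2 had about 7577 reads in mock and 222175 under bortezomib. EEF1A1 had 83684 and 34035 reads, while CXCL8 had 817 and 1737. The levels of HSPA1B and HSPA1A did not give whole reads. About 2638 against 5805 reads for HSPA1B give a ratio of 2.18 (interval 2.08 to 2.28). For HSPA1A, about 968 against 2150 give 2.20 (2.04 to 2.38). Reads of HSPA1A and HSPA1B can be assigned to either, so the share of each is uncertain. These 2 intervals treat rounded amounts as counts and leave that uncertainty out. The windows from 250 bases before to 50 bases after the start of both genes, from RefSeq on GRCh38.p14, are shown because they differ little and both hold a heat shock element. At a shift of 1 base, 277 of 299 bases are equal (92.6%). Capitals mark the match to GAANNTTC, searched on both strands, whose letters read the same on either strand. The windows are chr6:31815293-31815592 and chr6:31827488-31827787, both on the plus strand.
HSPA1A: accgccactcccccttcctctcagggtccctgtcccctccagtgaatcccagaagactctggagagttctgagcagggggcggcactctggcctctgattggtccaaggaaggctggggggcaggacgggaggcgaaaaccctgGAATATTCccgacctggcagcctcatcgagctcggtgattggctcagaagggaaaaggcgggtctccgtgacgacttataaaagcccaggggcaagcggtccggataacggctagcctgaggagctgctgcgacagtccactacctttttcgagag
HSPA1B: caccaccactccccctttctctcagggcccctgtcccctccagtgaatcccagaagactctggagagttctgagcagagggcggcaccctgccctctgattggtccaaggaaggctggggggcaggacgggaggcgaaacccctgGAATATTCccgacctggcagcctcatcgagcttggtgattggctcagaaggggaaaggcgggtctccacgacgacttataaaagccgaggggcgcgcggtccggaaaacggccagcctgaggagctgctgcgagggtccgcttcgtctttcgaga
The match begins at position -106 from the start of HSPA1A and at -105 from that of HSPA1B. Of all 27305 windows of this length 6.87% hold GAANNTTC, and of the 3327 windows of genes compared 4.51% do. The reverse order of the motif's parts, TTCNNGAA, is in neither window and in 7.84% of all windows. The windows of DNAJB1 and HSPH1, heat shock genes given below, hold neither form. Of the 15 highest protein-coding genes that reached a level of 5, 11 have a window and 2 hold GAANNTTC, HSPA1A and HSPA1B. Of the 15 lowest, 9 have a window and 1 holds it, IER5 at -226.

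The gene lists, here and below, were chosen with earlier results of these data known. A list's share above that of all genes can thus be partly built in, and is a description only. Of the 9 HSP70 and HSP110 genes, 4 were higher by the small limit (44.4%, beside 1.53% of all genes) and none lower. Their median was 0.16 against -0.02 over all genes. In read ratios the median was 0.05, over members with whole reads alone, which leave out HSPA1A, HSPA1B, HSPA6, HSPA8 and HSPA14. HSPA6, a strictly inducible HSP70, had a level of 1.43 in mock and 2.92 with CGI-1746, a log2 difference of 0.69 on about 57 against 117 reads. HSPH1, the HSP110 that exchanges nucleotide on HSP70, had 4.28 and 5.71, on 1976 and 2663 reads (ratio 1.34, interval 1.26 to 1.42). The constitutive member HSPA8 had 429 and 480 (log2 0.16), and the mitochondrial HSPA9 12 and 12.7 (0.08). HSPA4, HSPA13 and HSPA14 lay between -0.07 and 0.00. The larger differences were thus in the stress-inducible members and HSPH1.

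Among 19 HSP40 genes and other HSP70 partners, 2 were past the small limit, both higher (10.5%, beside 1.53% of all genes), and the median was 0.02. DNAJB1, the HSP40 partner of inducible HSP70, had a level of 10.6 in mock and 15.1 with CGI-1746 (0.47). DNAJB9, an HSP40 of the endoplasmic reticulum, had 256 and 351 reads (ratio 1.36, interval 1.15 to 1.60). BAG3, a nucleotide exchange factor and HSF1 target, had 700 and 814 reads (1.15, 1.04 to 1.28). None of 18 HSP90, HSP60, TRiC and small heat shock genes passed the small limit, with a median of 0.04. The highest of them were SERPINH1, the collagen chaperone, at 0.27, and HSP90AA1, the inducible HSP90, at 0.23, while its constitutive relative HSP90AB1 stood at 0.05.

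Of 19 endoplasmic reticulum chaperones and unfolded protein response genes, DNAJB9 alone was past the small limit. That is 5.26% on the higher side, beside 1.53% of all genes, and the list's median was 0.02. HSPA5, the HSP70 of this compartment, had a level of 167 in mock and 168 with CGI-1746, on 18272 and 18532 reads (ratio 1.005, interval 0.984 to 1.03). XBP1, a factor of the unfolded protein response, stood at 0.11 and HERPUD1, a component of degradation from this compartment, at 0.09. FICD, which attaches AMP to HSPA5, lay outside this list and had 162 and 233 reads (0.34).

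Of 18 targets of ATF4 and CHOP, 3 were higher by the small limit (16.7%, beside 1.53% of all genes) and none lower, with a median of 0.08. DDIT4, which restrains mTORC1, had a level of 7.28 in mock, 14.1 under CGI-1746, 8.42 under LU-102, 14.9 under both and 2.70 under bortezomib. Its reads were 259 in mock and 508 with CGI-1746 (ratio 1.94, interval 1.67 to 2.27), and both libraries with CGI-1746 exceeded the other 3. CEBPB, a factor of stress and inflammatory genes, had 178 and 263 reads (1.46, 1.21 to 1.78). DDIT3, which encodes CHOP itself, had 219 and 295 (1.34, 1.12 to 1.60). PPP1R15A, which restores translation, was at 0.27 and ATF4 at 0.10. Amino acid genes among these targets lay on both sides of 0: PYCR1 of proline synthesis was at 0.13, PSAT1 of serine synthesis at 0.04, the carrier SLC7A5 at -0.13 and the cystine carrier SLC7A11 at -0.18.

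Of 18 NRF2, heme and iron genes, with a median of 0.04, 1 was higher by the small limit (5.56%, beside 1.53% of all genes). None was lower, and the higher one was HMOX1, which breaks down heme. Its reads were 981 in mock, 2072 under CGI-1746, 1193 under LU-102, 3003 under both and 1901 under bortezomib. The ratio of CGI-1746 to mock was 2.09 (interval 1.94 to 2.26), more than the log2 difference of 0.92 conveys, because adding 1 shrinks ratios of levels as low as 4.44 and 9.30. The ferritin genes FTL and FTH1 were both at 0.13, on ratios of 1.10 (1.05 to 1.15) and 1.10 (1.03 to 1.17). NQO1, a quinone reductase, had 1794 reads in each library, TXNRD1 was at -0.01 and GCLM, of glutathione synthesis, at -0.10.

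Metallothioneins are small proteins that bind zinc and copper. Of 7 metal response genes 2 passed the small limit on the higher side (28.6%, beside 1.53% of all genes). The list's median was 0.27, and 0.10 with a pseudocount of 5. MT1X had 1194 reads in mock, 1755 under CGI-1746, 1421 under LU-102, 2395 under both and 706 under bortezomib, with a ratio to mock of 1.46 (interval 1.35 to 1.57) for CGI-1746. MT1E had a level of 150 and 196 (0.38), and MT2A had 2073 and 2610 reads (ratio 1.247, interval 1.18 to 1.32), at a log2 difference of 0.32 just under the limit. MT1F had 72 and 74 reads. The zinc exporter SLC30A1, also a target of MTF1, had 5316 and 5407 reads (1.01, 0.970 to 1.05), and the zinc importer SLC39A10 was at -0.19. Metallothionein genes are near copies of each other, so reads shared among them make single values uncertain. The window of MT1X, chr16:56682220-56682519 on the plus strand of GRCh38.p14 from RefSeq, is shown for its metal response elements, with matches to TGCGCNC on either strand in capitals.
MT1X: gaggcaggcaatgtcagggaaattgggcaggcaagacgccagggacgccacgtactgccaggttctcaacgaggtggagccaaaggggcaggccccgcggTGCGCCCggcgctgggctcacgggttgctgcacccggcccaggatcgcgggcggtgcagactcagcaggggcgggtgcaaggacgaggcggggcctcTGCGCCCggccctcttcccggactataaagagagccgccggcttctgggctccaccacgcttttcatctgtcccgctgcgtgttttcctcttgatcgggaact
The matches begin at positions -150 and -53 from the start. This motif is common: 19.97% of all windows and 33.1% of those of genes compared hold it.

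The FOXO and MondoA list and the interferon list each had 2 genes on the higher side (18.2% and 11.1%, beside 1.53% of all genes). Of 11 FOXO and MondoA targets, with a median of 0.09, those past the small limit were DDIT4, given above, and TXNIP, which binds thioredoxin and curbs glucose uptake. TXNIP had 1098 reads in mock, 1636 under CGI-1746, 877 under LU-102, 1470 under both and 376 under bortezomib (ratio to mock 1.476 for CGI-1746, interval 1.37 to 1.59). Of 18 interferon-induced genes, 2 passed, both of them IFIT genes, which are among the genes most induced by interferon. The list's median was -0.01, or -0.12 in the reads of members with whole reads and 0.08 over members that reached a level of 5. IFIT2 had 446 and 820 reads (1.82, 1.62 to 2.05), and 422 and 792 with LU-102 and the combination. IFIT3 had 772 and 1104 (1.42, 1.29 to 1.56). IFIT5 had 436 and 407, IRF1 was at -0.09, and ISG15 was at 0.17.

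**Figure D3:**
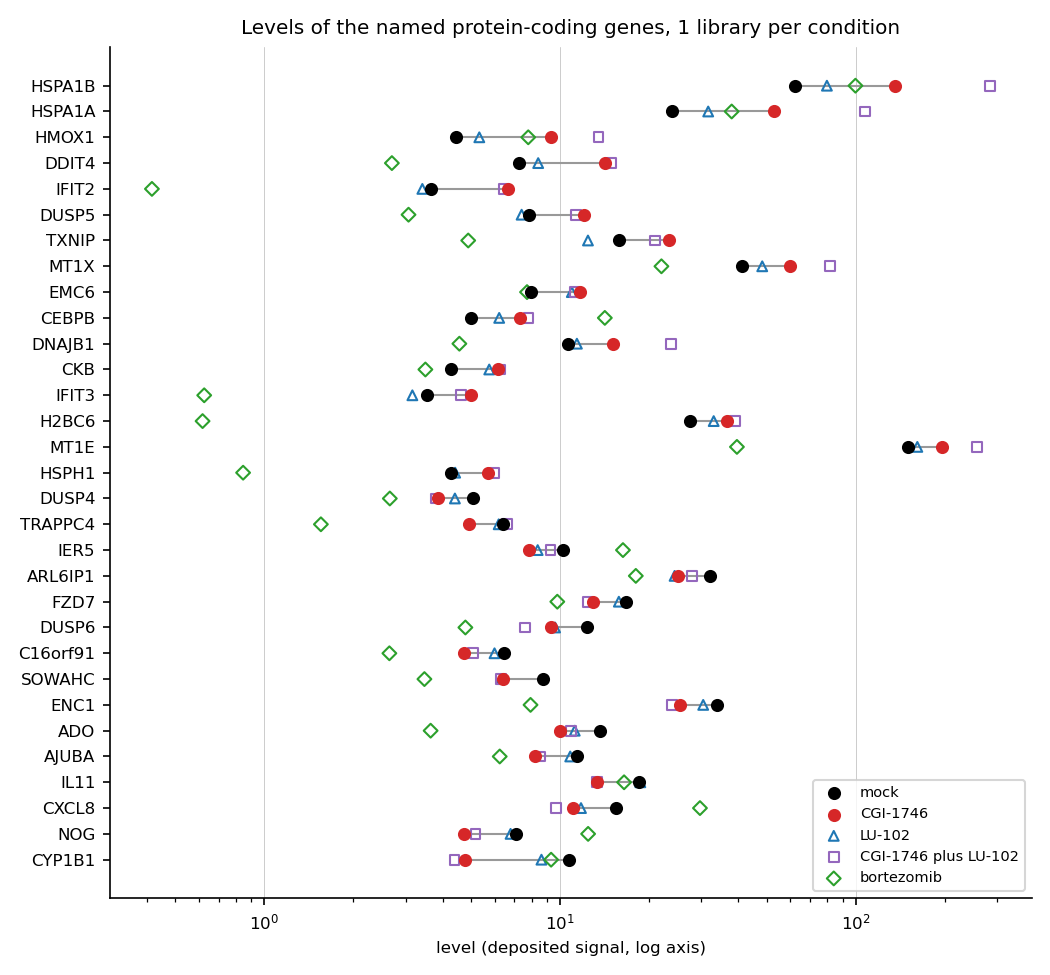
Levels on a log axis of the 31 protein-coding genes named by rule, 1 library per condition, with mock in black, CGI-1746 in red and open symbols for LU-102, the combination and bortezomib. HSPA1B stands at 62.2 in mock and 136 with CGI-1746, and CYP1B1 at 10.7 and 4.76; grey lines join these 2 libraries.

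CYP1B1, a cytochrome P450 that oxidises estrogens and aromatic hydrocarbons, was the protein-coding gene with the largest difference on the lower side. Its reads were 1545 in mock, 694 under CGI-1746, 1266 under LU-102, 640 under both and 1486 under bortezomib. Both libraries with CGI-1746 lay below the other 3, and the ratio of CGI-1746 to mock was 0.445 (interval 0.406 to 0.487). Its log2 difference of -1.02 became -0.997, short of 2-fold, once the libraries were scaled by the median of ratios. All 5 measured genes of the AHR list were below 0, as were 2374 of all 4186 genes. The list's median of -0.19 became -0.02 where only genes that reached a level of 5 were kept, -0.08 with a pseudocount of 5 and -0.37 in the reads of members with whole reads. TIPARP, an AHR target that feeds back on the receptor, had 1039 and 771 reads (0.735, 0.669 to 0.808), and AHR itself 1665 and 1378 (0.820, 0.763 to 0.881). NQO1, which is also on the NRF2 list, and TNFAIP2 were at -0.01 and -0.02.

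Of 16 ERK feedback and output genes, 13 were below 0, beside 2374 of all 4186 genes, and the median was -0.13. DUSP6, the phosphatase specific for ERK in the cytoplasm, had 1096 reads in mock and 833 with CGI-1746 (0.753, 0.687 to 0.825). It was the 1 gene past the small limit on the lower side (6.25%, beside 0.836% of all genes). On the higher side there was also 1, DUSP5 (6.25%, beside 1.53%). DUSP4, a nuclear phosphatase of ERK and other MAP kinases, had 1510 and 1160 (0.761, 0.704 to 0.822). ETV4, an ERK-driven transcription factor, had 848 and 662 (0.773, 0.698 to 0.857), and SPRY2, a Sprouty protein, 613 and 515 (0.832, 0.739 to 0.937). CCND1, the G1 cyclin, was at -0.15. DUSP5, the nuclear phosphatase specific for ERK, went the other way, with 1803 reads in mock, 2778 under CGI-1746, 1723 under LU-102, 2620 under both and 778 under bortezomib. Its ratio to mock was 1.53 (interval 1.44 to 1.62), so the ERK phosphatases did not share a direction. Of 20 immediate early genes none was higher by the small limit and 1, IER5, was lower (5%, beside 0.836% of all genes). JUN was at 0.02, EGR1 at 0.02 and MYC at 0.18.

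Of 18 NF-kB targets, cytokines and chemokines, 2 were lower by the small limit (11.1%, beside 0.836% of all genes) and none higher, with a median of -0.07. CXCL8, the neutrophil chemokine interleukin 8, had 817 reads in mock and 589 with CGI-1746 (0.714, 0.641 to 0.795). IL11, a cytokine of the IL6 family, had 1892 and 1375 (0.720, 0.671 to 0.772), and 1938 and 1378 with LU-102 and the combination. IL24 had 1136 and 914 (0.797, 0.730 to 0.870). NFKBIA, the feedback inhibitor of NF-kB, was at -0.06 and LIF at 0.10. NOG, the secreted BMP antagonist Noggin, had 228 and 154 reads (0.669, 0.542 to 0.825), while ID3, a BMP target, was at 0.03 and ID1 at -0.18.

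AJUBA, a LIM protein that restrains the Hippo kinases, had 2184 and 1593 reads (0.723, 0.677 to 0.771). It was the 1 of 15 YAP and TEAD targets past the small limit (6.67% lower, beside 0.836% of all genes). CCN2, a matrix-associated growth factor, was at -0.30, while its relative CCN1 was at 0.13. FZD7, a Wnt receptor, was at -0.35 and ENC1, an actin-binding protein, at -0.39. The remaining genes among the 15 lowest protein-coding ones were ADO (-0.41), SOWAHC (-0.39), C16orf91 (-0.38), ARL6IP1 (-0.34) and TRAPPC4 (-0.32). Of the 15 highest, those not yet given were EMC6 (0.50), CKB (0.44) and the histone H2BC6 (0.40). Beneath a level of 5 in both libraries, the largest difference of a protein-coding gene was that of KTI12, at 4.52 in mock and 2.22 with CGI-1746 (-0.78).

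Genes of the proteasome and of ubiquitin were close to the rest. None of 12 core particle genes, 19 regulatory particle genes, 12 activator and assembly genes or 26 ubiquitin genes passed the small limit, with medians of -0.04, -0.02, -0.08 and -0.05. PSMA7, an alpha ring subunit, had 1475 and 1798 reads (1.21, 1.13 to 1.29), the highest of the core. PSMB5, which carries the chymotrypsin-like site, had 1037 and 1020 (0.974, 0.893 to 1.06). By symbol, 17 of 19 UBE genes, largely ubiquitin-conjugating enzymes, lay below 0, beside 2374 of all 4186 genes, with a median of -0.09. Medians of 44 families of 10 or more genes with the same symbol letters ran from -0.09 (ZBTB, 8 of 10 below 0) to 0.25 (SNORD). CDC at -0.08 and NUP at -0.07 (9 of 10 below 0) were low too, so this was not particular to UBE genes. Of BTK and TEC kinases with their partners, 4 of 18 were in the table, namely PIK3R2 at 0.06, PLCG1 at 0.04, YES1 at -0.05 and CBL at -0.19, and BTK itself was not analysed here.

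Of 34 G2 and mitosis genes, 32 were below 0, beside 2374 of all 4186 genes, with a median of -0.12. ARL6IP1 alone was past the small limit, on the lower side (2.94%, beside 0.836% of all genes). CCNB1, the mitotic cyclin, had 2777 and 2367 reads, and CDC20, the activator of the anaphase-promoting complex, 1055 and 1077. Of 19 apoptosis regulators 17 were below 0, with a median of -0.11 and none past the small limit, among them MCL1 at -0.19. The list of 25 G1 and S phase genes had 18 below 0 and a median of -0.04. Its 1 gene past the small limit was CDKN2C at -0.33 (4% lower, beside 0.836% of all genes). Lists of 77 cytosolic ribosomal proteins, 43 mitochondrial ribosomal proteins, 48 translation factors, 57 nuclear-coded respiratory chain genes, 60 splicing factors and hnRNPs, 23 cholesterol and lipid genes, 74 solute carriers and 95 zinc finger genes had no gene past the small limit, and their medians lay between -0.03 and 0.02. The 21 genes of glycolysis and hypoxia had a median of 0.05, with 15 above 0.

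**Figure D4:**
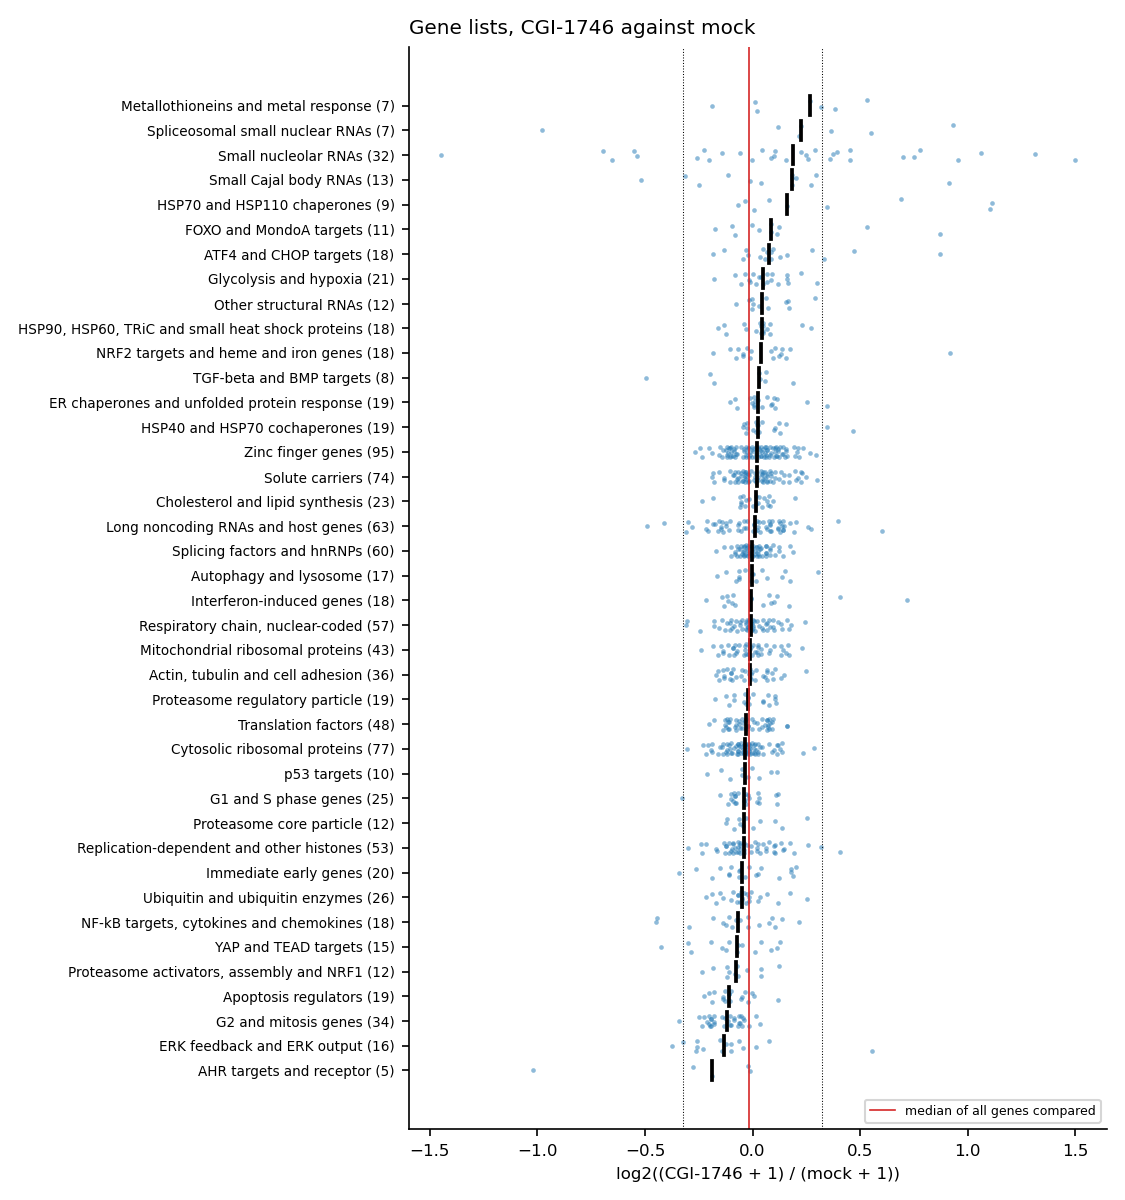
Each dot is a gene of 1 of 40 lists with 5 or more genes compared (number in brackets), placed by its log2 difference, with a black bar at the list's median, a red line at the median of all genes and dotted lines at the small limit of 0.32. Metal response genes, with a median of 0.27, stand at the top and AHR genes, at -0.19, at the bottom, at the pseudocount of 1 used here. Neither end held at a pseudocount of 5. At 0.1 spliceosomal RNAs (0.37) stood above metal response genes (0.32). Among genes that reached a level of 5, G2 and mitosis genes (-0.18) stood below AHR genes (-0.02).

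Values also differed with the length of a gene and with its reads. Among protein-coding genes divided into 4 equal groups by span, the median log2 difference was 0.00 and 0.00 in the 2 groups with the shortest spans, -0.02 in the next, and -0.05 in the group from 29272 bp up. The shortest group, of spans up to 6255 bp, held 30 of the 40 genes past the small limit on the higher side and 18 of the 25 on the lower. Over genes with whole reads, the median log2 read ratio was 0.17 under 50 reads, 0.02 at 200 to 500 and -0.07 at 2000 or more. The part of length or of reads in the lists' medians was not tested.

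Short RNAs scattered in both directions, on few reads. Of 32 small nucleolar RNAs, which guide changes of ribosomal RNA bases, 12 were higher (37.5%) and 5 lower (15.6%) by the small limit, beside 1.53% and 0.836% of all genes, with a median of 0.19. SNORA38 had 15 reads in mock and 34 with CGI-1746 (ratio 2.25, interval 1.19 to 4.44), SNORA71A 2 and 10 (4.95, 1.06 to 46.5), SNORA71D 1 and 6 (5.94, 0.721 to 273) and SNORA81 16 and 4 (0.248, 0.0603 to 0.768). These intervals are wide, and that of SNORA71D includes 1. SNORD17, the best counted on the higher side, had 208 and 271 reads (log2 0.36). Among 7 spliceosomal RNAs 3 were higher (42.9%) and 1 lower (14.3%) by the small limit. RNU12 of the minor spliceosome was at 4 and 10 reads (2.48, 0.714 to 10.8) and RNU6ATAC at 4 and 1 (0.248, 0.00503 to 2.50). RNVU1-7, a U1 variant with near copies in the genome, had a level of 250 and 367 (0.55). Of 13 small Cajal body RNAs 1 was higher and 1 lower by the small limit (7.69% each). SCARNA1 was higher on 5 and 12 reads (2.38, 0.780 to 8.62) and SCARNA17 lower on 13 and 7 (0.533, 0.180 to 1.44). None of 12 other structural RNAs was past the small limit. NEAT1, the long noncoding RNA that builds paraspeckles, had a level of 14.8 in mock, 22.9 under CGI-1746, 17.8 under LU-102, 24.7 under both and 19.4 under bortezomib (0.60 for CGI-1746 against mock). MALAT1, its neighbour, had 432 and 522 (0.27).

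The combination against LU-102 is the pair of libraries that also differs by CGI-1746 and shares no library with the comparison above. Its median over 4193 genes was 0.08, and 126 genes (3.01%) lay past the small limit on the higher side and 41 (0.978%) on the lower. All 15 of the highest protein-coding genes of CGI-1746 against mock were above 0 there, 11 of them past the small limit, with a median of 0.71. Of the 15 lowest, 12 were below 0 and 5 were past the small limit, with a median of -0.25, and none of the 30 was past the small limit the other way. Because the median of all genes lay above 0 in this pair, signs favoured the highest genes. Set against that median, 14 of the 15 highest lay above it and 13 of the 15 lowest below it. HSPA1B was 1.82 higher in this pair, HSPA1A 1.73, HMOX1 1.19, DNAJB1 0.99, DDIT4 0.75, IFIT2 0.75, MT1X 0.75, TXNIP 0.71 and DUSP5 0.55, and CYP1B1 was at -0.84 and IL11 at -0.46. EMC6 (0.03), CKB (0.11), ADO (-0.04) and SOWAHC (-0.00) were near 0 or near the median, and ARL6IP1, IER5 and TRAPPC4, low with CGI-1746 alone, stood at 0.19, 0.13 and 0.08.

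Of the 64 genes past the small limit and higher with CGI-1746 alone, 26 (40.6%) were also higher in the combination against LU-102 and 5 were lower. Of the 35 lower genes, 10 (28.6%) were lower there and 2 were higher. Across the 1383 genes that reached a level of 5 in mock or with CGI-1746, Pearson's r between the pairs was 0.41 and Spearman's rho 0.16. These are descriptions across genes, which are not independent, and the 4 libraries come from one study and one processing. The G2 and mitosis list, low with CGI-1746 alone, had a median of 0.04 in this pair, and the apoptosis list 0.06. Both were above 0 but below the 0.08 of all genes. The HSP70 list had 0.37, the metal list 0.31 and the AHR list -0.11.

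**Figure D5:**
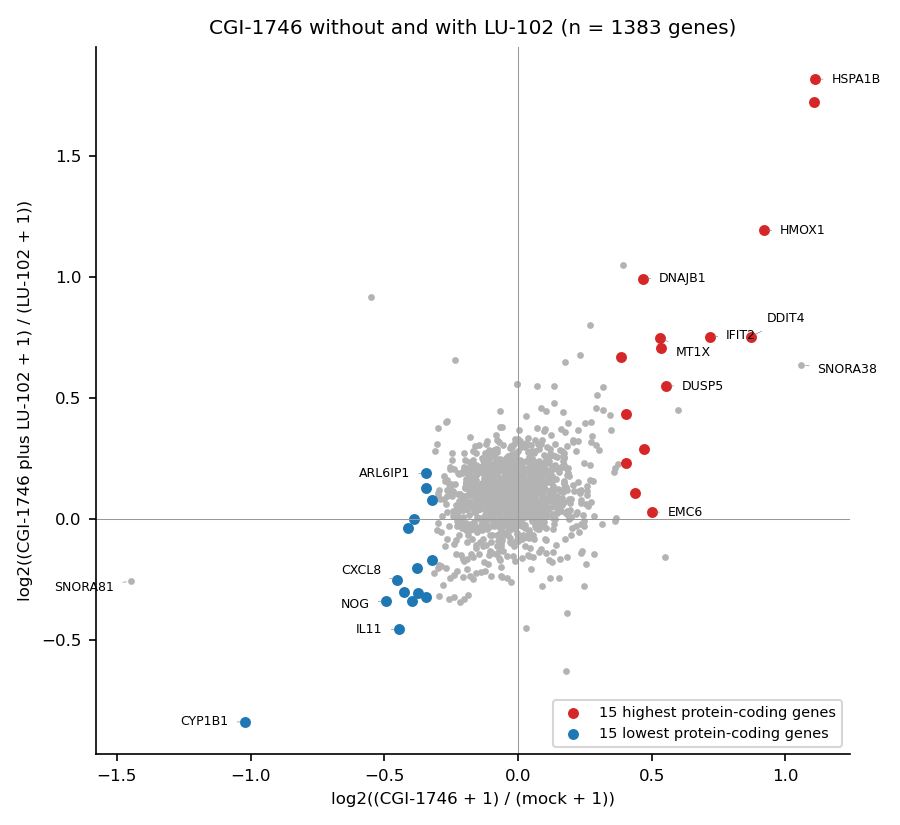
Each grey point is 1 of the 1383 genes that reached a level of 5, with the log2 difference of CGI-1746 against mock on the x axis and of the combination against LU-102 on the y axis, and the 15 highest (red) and 15 lowest (blue) protein-coding genes on the x axis in colour. HSPA1B at 1.11 and 1.82 and CYP1B1 at -1.02 and -0.84 lie at opposite corners, and the bulk of genes forms a round cloud.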

How the data were processed

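Total RNA of 5 libraries was sequenced, 1 per condition, so no comparison was tested. The deposited table gives a normalized signal per gene and library, named a least squares mean per the file headers. The submitters' processing notes name Partek and hg38, while no source used here gives an aligner, annotation or normalization. The table lists genes whose 5 levels sum to at least 5.04. The columns of levels that repeat a library, 7 in number, and the ratio and p-value columns were not used.

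Levels were compared as log2(level + 1) for genes that reached a level of 1 in at least 1 of the 2 libraries. Reads were recovered from level times the RefSeq gene span (GRCh38.p14), first for single-exon genes and, after seeing the data, for all genes; 3166 genes gave whole reads. Recovery with RefSeq spans and the comparison were run on simulated data whose levels were built from whole reads, with counting error alone. Searched spans, reads shared between genes and differences between cultures were not simulated, so that run cannot speak to them. Genes named are those past 2-fold, the 15 highest and 15 lowest protein-coding genes that reached a level of 5, and up to 4 per list past a log2 difference of 0.32 at such a level, or any level for short RNAs (42 genes); all other genes named were picked with their values in view. Values of a few genes are not reported here. The members and all 41 gene lists were chosen with earlier results of these data known. Motifs were searched in RefSeq windows of 300 bases, which 21 of the named genes have. Alternatives were the pseudocount, the filter on levels, scaling, protein-coding genes alone and recovered reads. Python 3.11.15 with pandas 2.3.3, numpy 2.4.6, scipy 1.17.1 and matplotlib 3.10.9 was used.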

Additional observations from a re-analysis of the deposited data

Results flagged for a closer look

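Among the genes compared, 7 were past a log2 difference of 0.32 in opposite directions in CGI-1746 against mock and in the combination against LU-102, and the difference between the pairs was not tested. The log2 difference from mock and that from LU-102 were 1.5 and -0.49 for SNORA71A, 0.955 and -0.70 for SNORA40B, 0.914 and -0.60 for SCARNA1, -0.55 and 0.92 for SNORD15B, and -0.98 and 0.48 for RNU6ATAC, all short RNAs. The protein-coding genes were BLID at 0.541 and -0.35 and NT5C at 0.408 and -0.36. In mock and with CGI-1746 all of them but SNORD15B had under 70 reads: BLID had 24 and 42, NT5C 45 and 69, and SNORD15B 78 and 53.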

How the results depend on the processing

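No paired analysis was possible because each condition has 1 library. The counts of genes past a limit depended on the processing. With a pseudocount of 0.1, 12 genes were 2-fold higher and 4 lower, and 137 and 89 were past the limit of 0.32 on the higher and lower sides. With a pseudocount of 5, 1 gene was 2-fold higher and 0 lower, and 23 and 8 were past 0.32. Where only genes that reached a level of 5 were kept, 3 were 2-fold higher and 2 lower, and 26 and 16 were past 0.32. Among protein-coding genes 2 were 2-fold higher and 1 lower, and 40 were higher and 25 lower by over 0.32. Scaling by the median of ratios, which moved all values by a log2 of 0.03 or less, left 1 gene 2-fold lower, with CYP1B1 at -0.997, and put 79 genes higher and 27 lower past 0.32. Read ratios over genes with 100 or more reads, chosen after seeing the data, gave 1 and 1 past 2-fold, and 72 higher and 54 lower by over 0.32. The all-gene median moved by less than the robust SD of 0.11 under each alternative. None of the 42 named genes changed sign, but these alternatives could not bring that about. Pseudocounts and read ratios keep the order of the same 2 levels, and filters leave a gene's value as it was. Scaling moved values by 0.03 or less, far less than the size of any named difference. Of 41 list medians 12 changed sign, all within 0.04 of 0. Ratios of genes with under 100 reads are limited by depth.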

Other observations

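BCYRN1, a short noncoding RNA, had 3 reads in mock and 8 with CGI-1746 (log2 0.83). ZC3HAV1, an antiviral zinc finger protein that lay in none of the gene lists, had 2006 reads in mock and 2863 with CGI-1746 (interval of the ratio 1.33 to 1.498, log2 0.34), and 0.42 in the combination against LU-102. DOLK, which makes dolichol phosphate for protein glycosylation, had 193 and 257 reads (0.35, and 0.43 in the other pair). IGFBP1, a binding protein of insulin-like growth factors, had 251 and 182 (-0.34, and -0.07 in the other pair), and CDKN2C, an inhibitor of G1 kinases, 705 and 515 (-0.33, and -0.19). All of these genes were picked with their values in view, and none of the differences was tested.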
